A study of Mus musculus with 594 samples.

Results

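MS-275, also called entinostat, was set against its solvent DMSO in a pair of mouse islet tumour lines. Of the 594 arrays of the series, 18 came from cells given MS-275, and they were chosen by the compound named in the sample title. They were 3 arrays of alpha-TC1 and 3 of beta-TC3 after 1 h, and as many after 6 h and after 24 h, all at 2.9 µM. Their controls were the 76 arrays of cells given DMSO alone. Those were 14 arrays of alpha-TC1 at each time, with 12, 10 and 12 arrays of beta-TC3 at 1, 6 and 24 h. Alpha-TC1 is a glucagon-making and beta-TC3 an insulin-making line. Both were derived from tumours of transgenic mice that carry a viral large T antigen, behind a glucagon gene promoter in alpha-TC1 and an insulin promoter in beta-TC3, so both are cycling tumour cells and not islet cells. Cells were plated 24 h before the compound and each array measured the total RNA of a whole well. Nothing in the labels says that the 3 arrays of a group came from separate cultures, so p-values measure only spread between arrays, which may be technical. That spread was pooled over all arrays in a fit, of every compound. The MS-275 arrays can therefore vary more for a gene than its p-value reflects.

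Histone deacetylases remove acetyl groups from lysines of histones and other proteins. The class I enzymes HDAC1, HDAC2 and HDAC3 act inside multi-subunit complexes (Sin3, NuRD, CoREST and NCoR/SMRT) that DNA-bound factors recruit to promoters and enhancers. MS-275 is an ortho-amino anilide, a structural class that binds the zinc in the active site of class I enzymes slowly and tightly. The same core is found in CI-994 and MGCD-0103 (mocetinostat), which the study also profiled. Inhibitors of this kind are known for slowing the cell cycle and for switching on genes that a cell type normally keeps silent.

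All levels below are log2 intensities, and a change is the log2 level with MS-275 minus that with DMSO, given with its standard error (SE) from limma. A change of 1 is therefore a 2-fold rise. A gene was called when its adjusted p in limma was under 0.05. Array medians of all 594 arrays ran from 4.36 to 4.73, so levels near or below these values are dim, and an array understates differences there. In bulk RNA fewer cells with a transcript and less transcript per cell cannot be told apart. Over all DMSO arrays the median Gcg level, the glucagon gene, was 12.41 in alpha-TC1 and 9.57 in beta-TC3. Ins2, an insulin gene, had medians of 4.24 in alpha-TC1 and 13.25 in beta-TC3. The alpha cell factor Irx1 (7.38 in alpha-TC1 and 3.07 in beta-TC3) and the beta cell factor Pdx1 (4.13 in alpha-TC1 and 9.35 in beta-TC3) also matched the labelled lines. Beta-TC3 also held much mRNA of somatostatin, the delta cell hormone (Sst median 12.69, against 4.03 in alpha-TC1). Ptprc of leukocytes, Krt19 of ducts and Ppy of pancreatic polypeptide cells were at most 3.42 on every DMSO array.

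The first question was when MS-275 changes transcripts. After 1 h 358 genes in alpha-TC1 and 408 in beta-TC3 had an unadjusted p under 0.05. Both counts lie below the share of 0.05 expected when no gene changes. After adjustment limma called 0 of 11807 genes in alpha-TC1 and 0 in beta-TC3. After 6 h it called 1692 genes in alpha-TC1 (780 higher, 6.61%, and 912 lower, 7.72%, together 14.3% of all genes) and 2106 in beta-TC3 (904 higher, 7.66%, and 1202 lower, 10.2%, together 17.8%). After 24 h it called 4447 in alpha-TC1 (2145 higher, 18.2%, and 2302 lower, 19.5%, together 37.7%) and 3890 in beta-TC3 (2031 higher, 17.2%, and 1859 lower, 15.7%, together 32.9%). The balance in beta-TC3 at 24 h turned to 1747 higher and 2369 lower when each array was centred on its median, and to 1467 and 1701 with dim genes left out. The 3 MS-275 arrays lay outside the range of all DMSO arrays for 0.152%, 7.19% and 23.1% of genes in alpha-TC1 at 1, 6 and 24 h, and for 0.373%, 10.6% and 15.9% in beta-TC3. Changes of at least 2-fold leaned upward. In alpha-TC1 86 genes rose and 6 fell that far at 6 h, and 621 rose and 424 fell at 24 h. In beta-TC3 65 rose and 19 fell at 6 h, and 394 rose and 193 fell at 24 h. The differences of the 3 MS-275 arrays from DMSO of their own batch correlated across genes at -0.27 to 0.09 at 1 h, at 0.51 to 0.67 at 6 h and at 0.78 to 0.88 at 24 h, with genes not being independent replicates. At 6 h the counts fell to 995 in alpha-TC1 and 1361 in beta-TC3 without batch 4, and in alpha-TC1 to 1078 without the first MS-275 array.

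**Figure D1:**
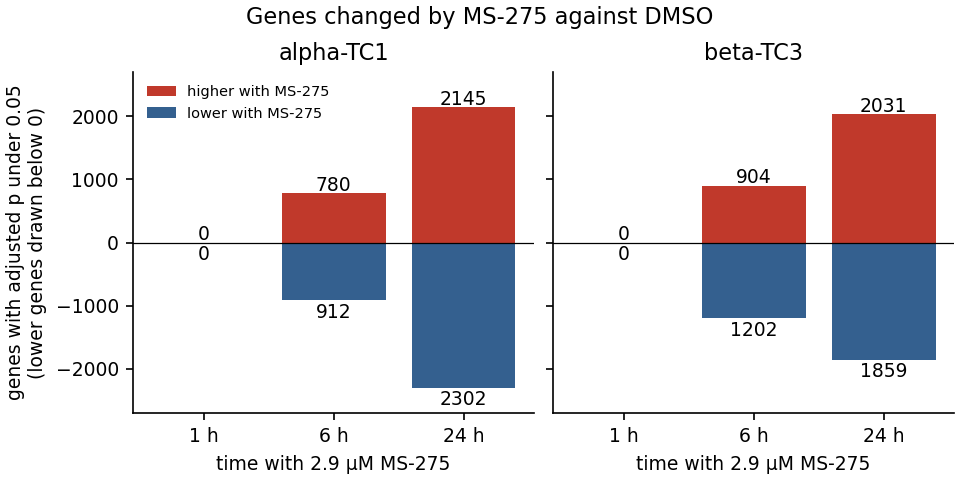
Number of genes (y axis) higher, drawn above 0, and lower, drawn below 0, with MS-275 than with DMSO at an adjusted p under 0.05, by time in h (x axis), for alpha-TC1 (left) and beta-TC3 (right). No gene was called at 1 h, and the counts at 24 h, 2145 and 2302 in alpha-TC1, exceed those at 6 h.

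The gene with the largest rise at 6 h in either line was Rsad2, which encodes viperin, an antiviral protein of the interferon response. In alpha-TC1 at 6 h its levels were 8.46, 8.70 and 8.05 with MS-275, against 4.12, 4.63 and 5.05 (lowest, median and highest) with DMSO. In beta-TC3 at 6 h they were 7.12, 7.37 and 6.72 with MS-275, against 3.67, 3.94 and 4.35 with DMSO. The groups lay far apart in both lines. The rise was 13.3-fold in alpha-TC1 (3.73 ± 0.19, adjusted p = 4.13e-26) and 8.34-fold in beta-TC3 (3.06 ± 0.18, adjusted p = 1.25e-22). The other 2 Rsad2 probe sets rose less, by 2.41 to 2.75 in alpha-TC1 and by 1.09 to 1.38 in beta-TC3. At 1 h Rsad2 was called in neither line (0.03 ± 0.24 in alpha-TC1 and -0.09 ± 0.16 in beta-TC3). At 24 h Rsad2 reached 10.24, 10.19 and 10.52 with MS-275 in alpha-TC1, against 4.39, 4.86 and 5.63 with DMSO, which is 37.2-fold (5.22 ± 0.38, adjusted p = 4.33e-19). The other Rsad2 probe sets rose by 3.86 to 4.29 there. In beta-TC3 it reached 8.39, 7.62 and 8.27 with MS-275, against 3.71, 4.28 and 4.99 with DMSO (3.86 ± 0.19, adjusted p = 9.29e-28), while the other Rsad2 probe sets rose by 2.13 to 2.46.

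Of 14 measured interferon response genes, 4 rose and 0 fell in alpha-TC1 at 6 h, and 5 rose and 1 fell in beta-TC3. At 24 h 8 rose and 0 fell in alpha-TC1, with a median change of 0.54, and 7 rose and 1 fell in beta-TC3, with a median of 0.15, beside medians over all genes of -0.01 and -0.03. Of all genes 6.61% and 7.66% were higher at 6 h in alpha-TC1 and beta-TC3, and 18.2% and 17.2% at 24 h. Ifit2, an interferon-induced protein that binds RNA, was at 5.94, 6.10 and 6.53 with MS-275 in alpha-TC1, against 3.95, 4.43 and 4.82 with DMSO (1.74 ± 0.20, adjusted p = 2.05e-11). Usp18, a protease that removes the ubiquitin-like protein ISG15 and damps interferon signalling, rose by 1.49 ± 0.17 in alpha-TC1 and stood at 0.06 ± 0.12 in beta-TC3 (not called), where DMSO cells already held it at a median of 8.73. Stat2, a transducer of the interferon receptor, rose by 1.43 ± 0.20 in alpha-TC1 and by 0.58 ± 0.17 in beta-TC3, and Irf7, a factor that drives interferon genes, by 1.26 ± 0.16 and 0.62 ± 0.16 in the same order. Stat2 was not called in beta-TC3 without the first array (0.46, adjusted p = 0.0958). Ifit3 was dim in alpha-TC1, where it rose by 0.59 ± 0.11, and rose by 1.18 ± 0.20 in beta-TC3. Other classic targets did not follow. Mx1, Mx2 and Ifit1 were called in neither line, and Oasl2 changed by 0.00 ± 0.087 in alpha-TC1 and fell by 0.74 in beta-TC3 (SE 0.16).

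The promoters of these genes were searched for the core of the interferon-stimulated response element, written as GAAA, any 2 bases and GAAA again, and sought on both strands. The sequences are the 250 bases before the annotated start of the gene, from RefSeq on GRCm38.p6, read 5′ to 3′ on the gene's strand, with the match in capitals (here always the reverse strand, so it starts with TTTC). The promoters of the 3 called genes Rsad2 (chr12:26456453-26456702, minus strand), Ifit3 (chr19:34583279-34583528, plus strand) and Stat2 (chr10:128270248-128270497, plus strand) are shown because they hold it.
Rsad2: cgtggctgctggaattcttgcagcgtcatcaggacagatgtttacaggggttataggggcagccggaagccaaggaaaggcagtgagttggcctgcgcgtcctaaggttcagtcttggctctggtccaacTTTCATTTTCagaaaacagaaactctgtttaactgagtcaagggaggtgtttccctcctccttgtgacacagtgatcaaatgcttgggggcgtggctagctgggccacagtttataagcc
Ifit3: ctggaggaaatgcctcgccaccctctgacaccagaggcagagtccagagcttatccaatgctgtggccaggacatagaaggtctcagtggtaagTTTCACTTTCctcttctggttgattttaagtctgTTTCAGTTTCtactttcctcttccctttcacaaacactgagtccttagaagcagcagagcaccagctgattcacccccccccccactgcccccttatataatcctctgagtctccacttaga
Stat2: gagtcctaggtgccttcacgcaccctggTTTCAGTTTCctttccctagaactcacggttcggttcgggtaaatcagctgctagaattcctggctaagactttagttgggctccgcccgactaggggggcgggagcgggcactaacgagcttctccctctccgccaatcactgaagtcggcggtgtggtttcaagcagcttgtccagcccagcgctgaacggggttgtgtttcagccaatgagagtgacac
The match starts 120 bases before the start of Rsad2, 156 and 122 bases before that of Ifit3, and 222 bases before that of Stat2. The core was in 2.98% of all 32851 promoters, against 5 of the 14 promoters of the interferon list (11 genes matched) and 0 of 17 promoters of the DNA replication list. A match is a description of letters only. The 3 promoters shown are a choice among the 5 genes of the interferon list that hold the core. Whether genes with the core rose more than those without it was not tested.

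The antigen presentation list holds genes of class I major histocompatibility molecules and the enzymes that cut and load their peptides, with 4 class II genes (Cd74, Ciita, H2-Aa and H2-Ab1). Of 11 measured, 0 rose and 1 fell at 6 h in each line, when 14.3% of all genes were called in alpha-TC1 and 17.8% in beta-TC3. By 24 h 8 rose and 1 fell in alpha-TC1 (median 0.59) and 5 rose and 3 fell in beta-TC3. Among all genes 18.2% and 17.2% were higher at 24 h, in alpha-TC1 and beta-TC3, and 19.5% and 15.7% lower. The class I heavy chain gene H2-D1 stood at 9.14, 8.75 and 8.68 with MS-275 in alpha-TC1, against 5.80, 6.24 and 6.51 with DMSO (2.64 ± 0.20, adjusted p = 9.29e-18). In beta-TC3 it was at 11.16, 11.12 and 11.41 with MS-275, against 10.19, 10.57 and 10.95 with DMSO (0.69 ± 0.12, adjusted p = 3.35e-06). The groups did not overlap in either line, but beta-TC3 started from a far higher level. Its other 4 probe sets changed by -0.13 to 3.28 in alpha-TC1. H2-K1 rose by 2.14 ± 0.20 and 0.78 ± 0.14, and the immunoproteasome subunit Psmb9 by 2.24 ± 0.16 and 1.03 ± 0.12, in alpha-TC1 and beta-TC3. The other probe sets of Psmb9 stood at 0.07 and 0.21 in alpha-TC1, and those of H2-K1 ran from 0.10 to 2.01. In beta-TC3 those of Psmb9 stood at 0.04 and 0.35, and those of H2-K1 ran from 0.21 to 0.97. Another immunoproteasome subunit, Psmb10, fell by 2.08 in alpha-TC1 (SE 0.17) and changed by -1.53 in beta-TC3 (SE 0.15).

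Of 7 measured deacetylase genes, 1 rose at 6 h in alpha-TC1 and 2 in beta-TC3, and 4 rose at 24 h in each line, with 0 falling. At 6 h 6.61% and 7.66% of all genes were higher in alpha-TC1 and beta-TC3, and at 24 h 18.2% and 17.2%. Hdac1 levels at 24 h were 9.50, 9.53 and 9.39 with MS-275 in alpha-TC1, against 8.50, 8.64 and 8.77 with DMSO. In beta-TC3 they were 9.60, 9.67 and 9.64 with MS-275, against 8.66, 8.96 and 9.19 with DMSO. All MS-275 arrays were above all DMSO arrays in both lines (0.85 ± 0.096, adjusted p = 1.65e-11, and 0.70 ± 0.070, adjusted p = 2.37e-13). Hdac2 stood at 0.31 ± 0.18 in alpha-TC1, where it was not called, and rose by 0.78 ± 0.15 in beta-TC3. Hdac11, the only class IV enzyme, rose in both lines at 6 h (0.62 ± 0.13 in alpha-TC1 and 0.74 ± 0.17 in beta-TC3) and at 24 h (0.77 ± 0.16 and 0.99 ± 0.14). With no batch term Hdac11 was not called in beta-TC3 at 6 h (0.72, adjusted p = 0.115). Hdac5, a class II enzyme, rose by 1.47 ± 0.17 in alpha-TC1 from a dim level. Hdac3 was not analysed here.

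Of 19 measured subunits of class I complexes, 2 rose and 4 fell at 6 h in alpha-TC1 and 3 rose and 2 fell in beta-TC3. At 24 h 2 rose and 6 fell in alpha-TC1 and 3 rose and 6 fell in beta-TC3. Of all genes 14.3% were called in alpha-TC1 and 17.8% in beta-TC3 at 6 h, and 37.7% and 32.9% at 24 h. Mbd3, a core subunit of NuRD, was at 5.54, 5.35 and 5.40 with MS-275 in alpha-TC1 at 24 h, against 7.57, 8.0 and 8.35 with DMSO, a 5.74-fold fall (-2.52 ± 0.20, adjusted p = 1.24e-17). In beta-TC3 it was at 5.77, 6.14 and 6.46 with MS-275, against 6.97, 7.60 and 8.27 with DMSO (-1.39 ± 0.15, adjusted p = 5.85e-12). The NuRD subunits Mta1, Mta2 and Mta3 also fell in both lines, Mta1 by 1.13 in alpha-TC1 (SE 0.16) and by 0.50 in beta-TC3 (SE 0.15), where Mta1 was not called without the first array (-0.32, adjusted p = 0.202). The NCoR/SMRT subunit Tbl1x rose by 1.04 ± 0.14 in alpha-TC1 and 1.25 ± 0.12 in beta-TC3 at 6 h, and its paralog Tbl1xr1 by 0.93 ± 0.12 and 1.36 ± 0.14. Sin3a, the scaffold of the Sin3 complex, fell at 6 h by 0.80 in alpha-TC1 (SE 0.16) and by 0.85 in beta-TC3 (SE 0.13). At 24 h it stood at 0.33 ± 0.16 and 0.03 ± 0.15 (neither called), and the change at 24 h minus that at 6 h was 1.13 ± 0.23 in alpha-TC1 (adjusted p = 4.88e-05) and 0.88 ± 0.20 in beta-TC3 (adjusted p = 0.000336). Among other chromatin genes, Kat2b, which encodes the acetyltransferase PCAF, fell by 2.38 in alpha-TC1 at 24 h (SE 0.19) and by 0.92 in beta-TC3 (SE 0.12). The other Kat2b probe set stood at -0.51 in alpha-TC1 and -0.43 in beta-TC3. Kmt5b, a methyltransferase for histone H4, was among the 10 largest falls at 6 h in both lines (-0.99 ± 0.18 in alpha-TC1 and -1.22 ± 0.14 in beta-TC3), and Macroh2a2, a variant histone gene, among those at 24 h in alpha-TC1 (-2.51 ± 0.22), although its other probe set stood at 0.20. Other Kmt5b probe sets ran from -0.86 to -0.13 in alpha-TC1 and from -1.33 to -0.11 in beta-TC3 at 6 h. Those of Tbl1xr1 ran from 0.18 to 0.56 and from 0.18 to 1.44, in the same order and at the same time. Those of Sin3a ran from -0.90 to -0.13 and from -0.95 to -0.02.

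Inhibitors of cyclin-dependent kinases (CDKs) hold cells out of division. Cdkn2b encodes p15, which blocks CDK4 and CDK6. At 6 h it was at 8.25, 8.30 and 7.94 with MS-275 in alpha-TC1, against 6.66, 7.18 and 7.74 with DMSO (1.25 ± 0.11, adjusted p = 2e-14), and at 7.82, 7.81 and 7.48 with MS-275 in beta-TC3, against 6.26, 6.74 and 6.92 with DMSO (1.21 ± 0.11, adjusted p = 3.43e-14). At 24 h the change was 0.49 ± 0.15 in alpha-TC1, with overlapping groups, and 1.02 ± 0.13 in beta-TC3. The call in alpha-TC1 was lost without the third array (0.28, adjusted p = 0.218) and with no batch term (0.25, adjusted p = 0.308). The drop between the times was called in alpha-TC1 (-0.76 ± 0.18, adjusted p = 0.000588) and not in beta-TC3 (-0.19 ± 0.17, adjusted p = 0.531). Cdkn1c, which encodes p57, was not called at 6 h (-0.22 ± 0.14 in alpha-TC1 and -0.18 ± 0.15 in beta-TC3). At 24 h it stood at 9.0, 9.16 and 9.52 with MS-275 in alpha-TC1, against 5.75, 6.18 and 6.89 with DMSO, which is 7.5-fold (2.91 ± 0.21, adjusted p = 1.54e-19). In beta-TC3 it stood at 7.20, 5.82 and 6.61 with MS-275, against 4.59, 5.00 and 5.51 with DMSO (1.71 ± 0.18, adjusted p = 1.61e-12). Between the times its change grew by 3.12 ± 0.25 in alpha-TC1 (adjusted p = 1.18e-20) and 1.89 ± 0.24 in beta-TC3 (adjusted p = 1.14e-10). Cdkn1a, which encodes p21, the inhibitor most often tied to deacetylase inhibitors, rose 2.07-fold in alpha-TC1 (1.05 ± 0.19) and 1.55-fold in beta-TC3 (0.63 ± 0.11) at 24 h. Of 7 CDK inhibitor genes, 4 rose and 0 fell at 24 h in alpha-TC1 and 4 rose and 3 fell in beta-TC3, where Cdkn2d, which encodes p19, fell by 1.05 (SE 0.13). At that time 18.2% and 17.2% of all genes were higher in alpha-TC1 and beta-TC3, and 19.5% and 15.7% lower.

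**Figure D2:**
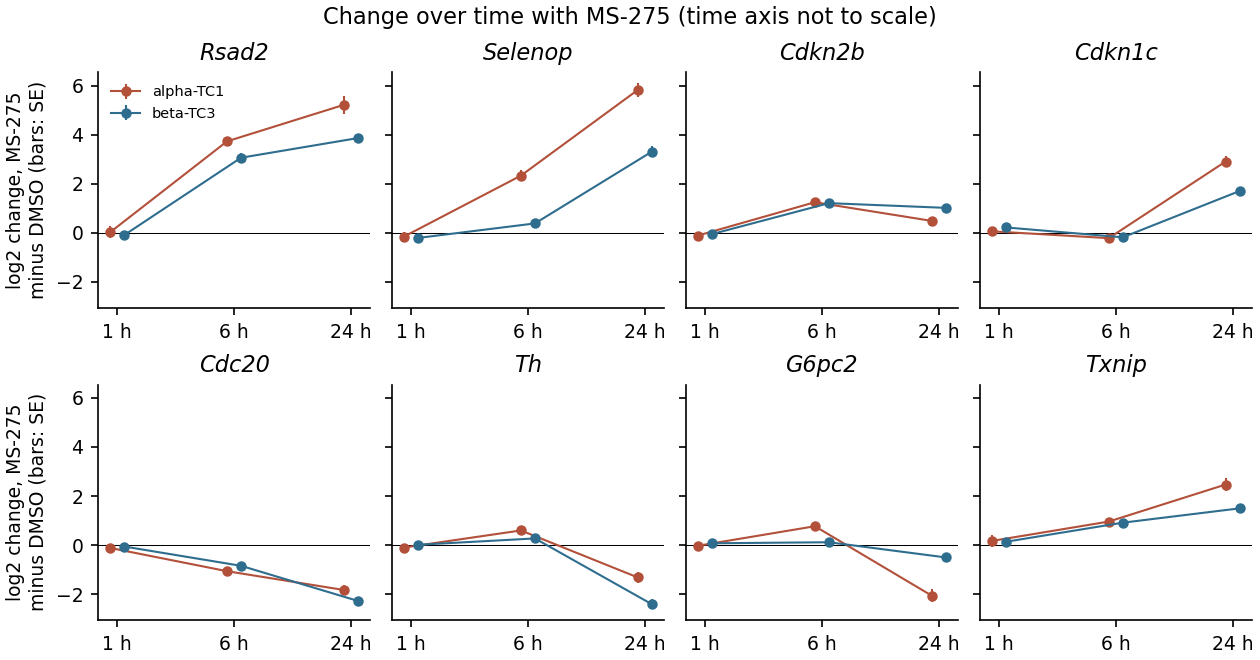
Change in log2 level with MS-275 minus DMSO (y axis, bars are SE) at 1, 6 and 24 h (x axis, not to scale) for 8 genes in alpha-TC1 and beta-TC3. Rsad2 and Cdkn2b had moved by 6 h, Cdkn1c moved between 6 and 24 h, and Th and G6pc2 were above 0 at 6 h and below 0 at 24 h.

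Of 19 measured mitosis genes, 6 fell and 0 rose at 6 h in alpha-TC1 and 5 fell and 0 rose in beta-TC3. Among all genes 7.72% and 10.2% were lower at that time, in alpha-TC1 and beta-TC3. At 24 h 9 fell and 0 rose in alpha-TC1, with a median change of -0.47, and all 19 fell in beta-TC3, with a median of -1.27, beside 19.5% and 15.7% of all genes lower. Cdc20, which switches on the anaphase-promoting complex, was at 8.60, 8.15 and 8.38 with MS-275 in alpha-TC1 at 6 h, against 8.98, 9.54 and 9.82 with DMSO (-1.06 ± 0.14, adjusted p = 7.58e-09). At 24 h it was at 7.35, 7.41 and 7.0 with MS-275 in alpha-TC1, against 8.86, 9.26 and 9.64 with DMSO (-1.83 ± 0.21, adjusted p = 1.3e-11). In beta-TC3 at 24 h it was at 7.36, 7.80 and 6.96 with MS-275, against 9.15, 9.64 and 9.79 with DMSO (-2.27 ± 0.14, adjusted p = 5.27e-22). The groups were apart each time. Ube2c, the ubiquitin-conjugating enzyme that works with that complex, fell 2.44-fold in alpha-TC1 (-1.29 ± 0.15) and 5.06-fold in beta-TC3 (-2.34 ± 0.13), and the mitotic kinase gene Plk1 fell 2.44-fold in alpha-TC1 (-1.29 ± 0.21) and 4.23-fold in beta-TC3 (-2.08 ± 0.16). Aurka, another mitotic kinase, fell by 1.63 in alpha-TC1 (SE 0.21) and by 1.80 in beta-TC3 (SE 0.14). Top2a, Cdk1, Cenpf and Kif11 were not called in alpha-TC1 and fell in beta-TC3. In the test of the difference between lines 14 of the 19 were called, all with the smaller fall in alpha-TC1, where 8.70% of all genes were called in that direction. The difference was 1.05 ± 0.19 for Ube2c (adjusted p = 9.24e-06), 0.80 ± 0.27 for Plk1 (adjusted p = 0.0251) and 0.44 ± 0.25 for Cdc20 (adjusted p = 0.254, not called). That for Plk1 was lost without the first MS-275 array of alpha-TC1 (0.50, adjusted p = 0.274). Of 18 genes of DNA replication, 2 rose and 3 fell in alpha-TC1 at 24 h and 0 rose and 10 fell in beta-TC3, where the largest falls were those of the ribonucleotide reductase subunits Rrm1 and Rrm2 (-0.82 each).

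**Figure D3:**
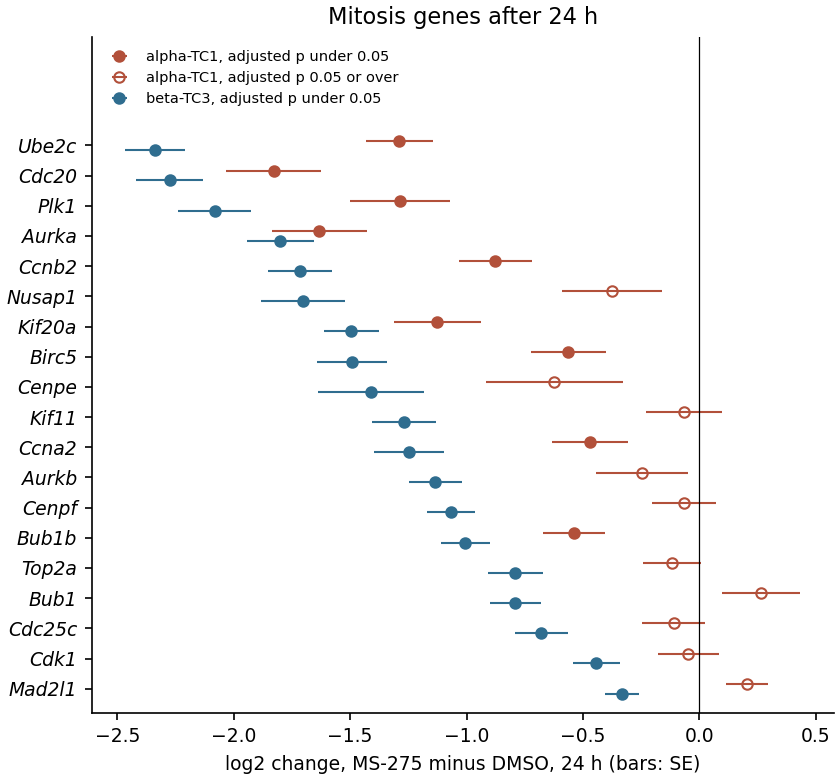
Change in log2 level with MS-275 minus DMSO after 24 h (x axis, bars are SE) of the 19 measured mitosis genes (y axis, ordered by the change in beta-TC3), with filled points for genes called. All 19 points of beta-TC3 lie below 0 and are called, against 9 called in alpha-TC1.

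Promoters of mitotic genes often carry a cell cycle genes homology region, or CHR, a site of the DREAM and MuvB complexes that is written here as TTTGAA and was sought on both strands. It can share letters with the interferon core, whose GAA it contains. Those of Cdc20 (chr4:118437344-118437593, minus strand) and Ube2c (chr2:164769679-164769928, plus strand), whose falls are given above, held 1 match each, shown in capitals in the 250 bases before the gene's start (RefSeq, GRCm38.p6), with that of Ube2c on the reverse strand.
Cdc20: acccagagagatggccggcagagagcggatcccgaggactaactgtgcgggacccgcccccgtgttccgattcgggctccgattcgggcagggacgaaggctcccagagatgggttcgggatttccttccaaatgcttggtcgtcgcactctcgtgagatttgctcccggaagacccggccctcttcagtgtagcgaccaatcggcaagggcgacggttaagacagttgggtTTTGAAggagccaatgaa
Ube2c: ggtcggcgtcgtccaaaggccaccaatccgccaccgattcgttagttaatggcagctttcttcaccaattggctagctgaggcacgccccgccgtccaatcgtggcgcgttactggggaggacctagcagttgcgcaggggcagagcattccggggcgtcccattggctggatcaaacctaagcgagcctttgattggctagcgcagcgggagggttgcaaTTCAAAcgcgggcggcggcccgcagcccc
The matches start 18 bases before the start of Cdc20 and 29 bases before that of Ube2c. The letters were in 15.99% of all 32851 promoters, against 6 of 15 promoters of the mitosis list and 2 of 17 of the DNA replication list.

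After 24 h the largest rises in alpha-TC1 were far beyond those at 6 h. Selenop, a selenium carrier that liver secretes, was at 10.18, 10.49 and 10.01 with MS-275, against 3.52, 4.86 and 5.74 with DMSO, which is 56.6-fold (5.82 ± 0.28, adjusted p = 5.89e-27). At 6 h it had been at 5.86, 6.45 and 6.88 with MS-275, against 3.47, 4.72 and 5.49 with DMSO (2.33 ± 0.22, adjusted p = 9.85e-14). The groups were apart at both times. In beta-TC3 Selenop stood at 0.38 ± 0.15 at 6 h (not called) and rose by 3.31 ± 0.23 at 24 h. Gsta4, a glutathione transferase that clears products of lipid oxidation, was at 8.99, 9.06 and 8.19 with MS-275 in alpha-TC1, against 3.63, 3.77 and 4.24 with DMSO (4.79 ± 0.29, adjusted p = 1.63e-22). Akap12, a scaffold for protein kinase A, rose by 4.60 ± 0.25 in alpha-TC1 and 2.20 ± 0.19 in beta-TC3, and Ptgr1, a prostaglandin reductase, by 4.45 ± 0.20 and 3.61 ± 0.21. The alpha-globin gene Hba-a1, a transcript of red cell precursors, was at 8.29, 8.85 and 7.92 with MS-275 in alpha-TC1, against 3.74, 4.15 and 4.50 with DMSO (4.05 ± 0.25, adjusted p = 4.76e-22). Its other 2 probe sets stood at 0.38 and 4.13.

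The largest fall in alpha-TC1 was that of Kcnk2, a background potassium channel. It was at 4.26, 4.85 and 4.57 with MS-275 at 24 h, against 7.38, 7.91 and 8.46 with DMSO, a 10.3-fold fall (-3.36 ± 0.28, adjusted p = 1.54e-16). At 6 h it had fallen by 0.69 (SE 0.17), with overlapping groups. In beta-TC3 Kcnk2 was dim, at 3.02, 3.11 and 3.01 with MS-275 against 2.97, 3.07 and 3.33 with DMSO, and was not called. Cryba2, a beta-crystallin gene that islet cells express, fell by 3.06 in alpha-TC1 (SE 0.26) and by 1.38 in beta-TC3 (SE 0.19). Ap4s1, a subunit of an adaptor complex for vesicle coats, fell in both lines, by 2.91 in alpha-TC1 (SE 0.25) and by 2.75 in beta-TC3 (SE 0.17). The mitochondrial genes Ptpmt1 (a phosphatase of cardiolipin synthesis) and Coq4 (needed for coenzyme Q) fell in alpha-TC1 (-2.65 ± 0.20 and -2.58 ± 0.17).

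In beta-TC3 the largest rise at 24 h was that of Tesc, which encodes the calcium-binding protein tescalcin. It was at 9.06, 8.82 and 8.79 with MS-275, against 4.69, 5.07 and 5.54 with DMSO, which is 14.7-fold (3.88 ± 0.26, adjusted p = 8.63e-21). Alpha-TC1 held Tesc at a high level with and without the compound, at 11.39, 11.31 and 11.66 with MS-275 against 11.45, 11.56 and 11.84 with DMSO, and it was not called there. Calb1, which encodes the calcium buffer calbindin, was at 7.58, 5.93 and 7.32 with MS-275 in beta-TC3, against 2.72, 3.01 and 3.23 with DMSO (3.86 ± 0.22, adjusted p = 1.23e-24). In alpha-TC1 it was at 3.63, 4.56 and 5.17 with MS-275, against 2.66, 2.79 and 2.97 with DMSO (1.60 ± 0.14, adjusted p = 4.81e-16). The other Calb1 probe set stood at -0.02 in alpha-TC1 and 0.07 in beta-TC3. Of 11 calcium-binding genes 5 rose and 0 fell at 24 h in alpha-TC1, and 5 rose and 3 fell in beta-TC3. Among all genes 37.7% were called at 24 h in alpha-TC1 and 32.9% in beta-TC3. Lipoprotein lipase, Lpl, was at 8.27, 5.42 and 7.61 with MS-275 in beta-TC3, against 3.36, 3.87 and 4.49 with DMSO (3.36 ± 0.22, adjusted p = 5.13e-21), and in alpha-TC1 it was bright throughout and not called (0.14 ± 0.16). The other Lpl probe set stood at 1.59 in beta-TC3. Crabp2, a carrier of retinoic acid, rose by 3.47 ± 0.25 in beta-TC3, and the adhesion receptor gene Cd44 by 3.01 ± 0.16 at 24 h and 1.66 ± 0.13 at 6 h.

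The second MS-275 array of beta-TC3 at 24 h moved least for many of these genes, as for Lpl and Calb1. It was the only one of the 3 from batch 10, the others being from batches 4 and 6. Against DMSO arrays of its own batch it differed by 1.87 for Lpl, where the others differed by 4.38 and 3.77, and by 2.73 for Calb1, where the others differed by 4.62 and 4.37. Without it limma called 3596 genes in beta-TC3 at 24 h, and 3117 and 3069 without the first and the third array. The SE was pooled over all arrays in the fit. Those of Lpl and Calb1 therefore do not show how far these 3 arrays spread.

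**Figure D4:**
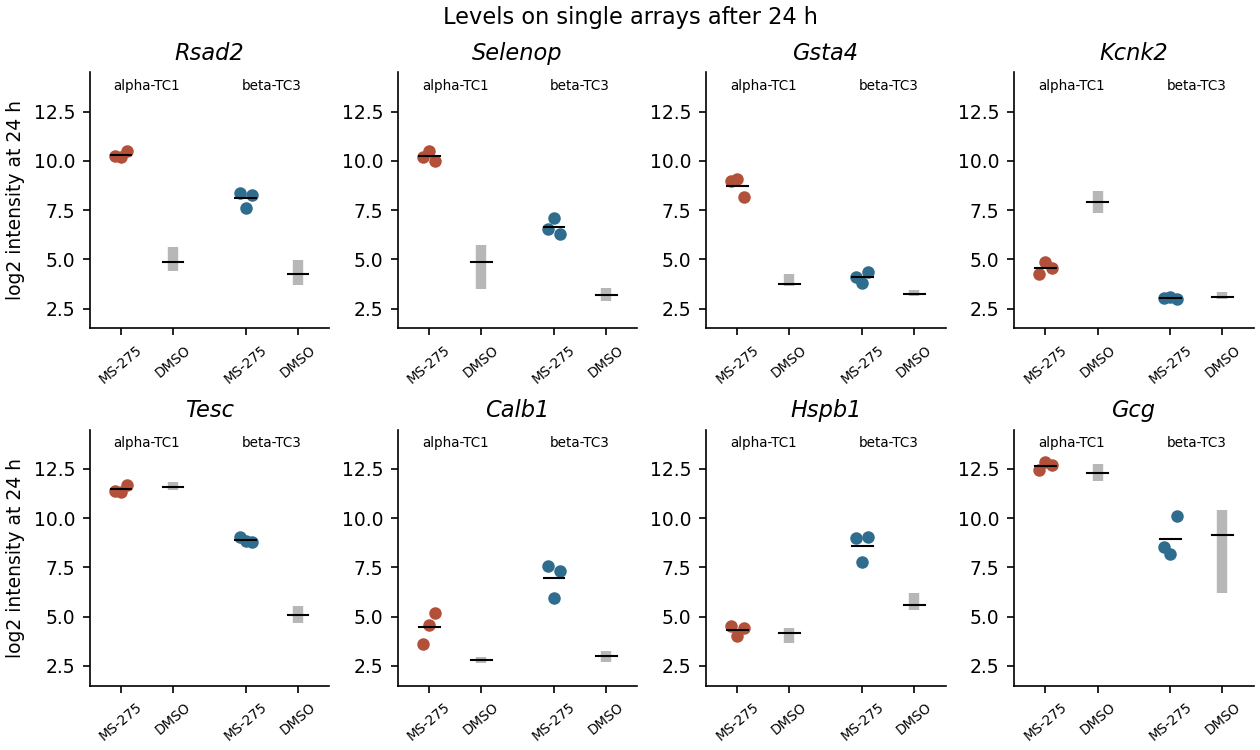
Log2 intensity after 24 h (y axis) of 8 genes on single arrays (x axis, by line and treatment), with a point for each of the 3 MS-275 arrays and a line at their mean, and a grey bar from the lowest to the highest DMSO array with a line at their median. Tesc was already bright in alpha-TC1 with DMSO, Kcnk2 was dim in beta-TC3, and Gcg of beta-TC3 spanned 6.18 to 10.43 with DMSO.

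At 6 h the genes that rose most after Rsad2 differed between the lines. In alpha-TC1 they were Ppp1r3c (2.90 ± 0.17), which targets a phosphatase to glycogen, the iron exporter Slc40a1 (2.63 ± 0.16), the lipogenic factor Thrsp (2.44 ± 0.19) and Selenop. In beta-TC3 they were Rgs4 (2.01 ± 0.12), which shortens G protein signals, Tdo2 (1.95 ± 0.13), which degrades tryptophan, and Cd44. In alpha-TC1 the other probe set stood at 1.87 for Ppp1r3c, 2.59 for Slc40a1 and 1.12 for Thrsp. In beta-TC3 those of Rgs4 ran from 1.63 to 1.82, and the other probe set stood at 0.15 for Tdo2 and 0.65 for Cd44. Ppp1r3c was at 8.06, 7.78 and 7.30 with MS-275 in alpha-TC1, against 3.96, 4.92 and 5.54 with DMSO, and in beta-TC3 it was dim, at 3.03, 3.14 and 2.96 with MS-275 against 2.72, 2.94 and 3.16 with DMSO. Rgs4 rose in both lines, in alpha-TC1 by 1.21 ± 0.12. Among the falls at 6 h the largest in alpha-TC1 was that of Mxd4 (-1.64 ± 0.18), a partner of MAX that opposes MYC, which also fell in beta-TC3 (-0.66 ± 0.13). In beta-TC3 Qrsl1, which charges mitochondrial tRNA, and Limk1, a kinase of the actin cytoskeleton, fell most, by 1.50 each (SE 0.20 each), while the other Limk1 probe set stood at -0.05. The other Qrsl1 probe set stood at -0.63. The other probe sets of Mxd4 ran from -0.32 to -0.05 in alpha-TC1 and from -0.40 to 0.01 in beta-TC3.

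Hormones and identity factors of islet cells changed unevenly. Ins2 of beta-TC3 was at 13.24, 13.21 and 13.24 with MS-275 at 24 h, against 13.02, 13.24 and 13.36 with DMSO, and was not called (0.04 ± 0.061). These levels lie near the top of the range of the arrays. Whether the Ins2 signal was saturated was not tested, so insulin mRNA is not shown to be unchanged. Transcription factors of the beta cell fell in part. Nkx2-2 was at 6.18, 5.90 and 6.42 with MS-275 in alpha-TC1, against 7.12, 7.75 and 8.37 with DMSO (-1.74 ± 0.22, adjusted p = 6.14e-10). In beta-TC3 it was at 5.71, 6.80 and 6.26 with MS-275, against 7.46, 8.06 and 8.38 with DMSO (-1.57 ± 0.19, adjusted p = 1.21e-10). The groups were apart in both lines. Pax6 fell by 0.47 in alpha-TC1 (SE 0.14) and by 1.15 in beta-TC3 (SE 0.13), and the other Pax6 probe sets ran from -0.84 to 0.15 in alpha-TC1. Nkx6-1 fell by 0.78 in alpha-TC1 (SE 0.15) and by 0.74 in beta-TC3 (SE 0.13). Pdx1 fell by 0.70 in beta-TC3 (SE 0.13), where its groups overlapped, and was dim in alpha-TC1. G6pc2, the islet glucose-6-phosphatase, rose by 0.77 ± 0.19 at 6 h in alpha-TC1 and fell by 2.06 at 24 h (SE 0.26), a difference of -2.83 ± 0.32 (adjusted p = 6.34e-13). The rise at 6 h was not called with no batch term (0.62, adjusted p = 0.169) or without batch 4 (0.68, adjusted p = 0.0518). Of 13 beta cell markers 1 rose and 6 fell at 24 h in each line. Beside them 18.2% and 17.2% of all genes were higher in alpha-TC1 and beta-TC3, and 19.5% and 15.7% lower.

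Of 9 alpha cell markers 2 rose and 2 fell at 24 h in alpha-TC1, and 1 rose and 1 fell in beta-TC3. Beside the marker counts of this paragraph, 37.7% of all genes were called in alpha-TC1 and 32.9% in beta-TC3. The alpha cell factors Irx1 and Irx2 fell in alpha-TC1. Irx1 was at 6.22, 6.33 and 6.42 with MS-275, against 7.15, 7.49 and 7.77 with DMSO (-1.23 ± 0.16, adjusted p = 1.96e-09), and Irx2 fell by 0.86 (SE 0.13). Gcg was at 12.45, 12.86 and 12.69 with MS-275 in alpha-TC1, against 11.90, 12.31 and 12.74 with DMSO, a small rise with overlapping groups (0.46 ± 0.11, adjusted p = 0.000414). In beta-TC3 Gcg was at 8.53, 8.17 and 10.12 with MS-275, against 6.18, 9.12 and 10.43 with DMSO, and the levels overlapped fully. With batch as a term limma called a rise (1.07 ± 0.19, adjusted p = 4.19e-06). Each MS-275 array exceeded the DMSO arrays of its own batch, by 2.28 in batch 4, 0.40 in batch 10 and 0.73 in batch 6, so this call rests on the batch term. Without that term the change was 0.15 (adjusted p = 0.929), and without the first MS-275 array, of batch 4, it was 0.67 (adjusted p = 0.0124). Other hormones and cell types were checked by their markers. Of 10 markers of other islet hormone cells 3 rose at 24 h in alpha-TC1 and 2 in beta-TC3, among them Cck in alpha-TC1 (1.80 ± 0.17), which encodes cholecystokinin. Of 14 markers of non-endocrine cells 4 rose and 1 fell in alpha-TC1 and 2 rose and 0 fell in beta-TC3. The rises of Krt19, Col1a1 and Vim left them at 4.69 or less. Vim was at 4.56, 2.81 and 4.69 with MS-275 in beta-TC3, against 2.61, 2.85 and 2.99 with DMSO, with the second array inside the DMSO range, and Ptprc was called in neither line.

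Immediate early genes, which growth factors and stress switch on within minutes, rose at 24 h. Of 17 measured, 4 rose and 1 fell at 6 h in alpha-TC1 and 6 rose and 1 fell in beta-TC3, and 10 rose and 0 fell at 24 h in alpha-TC1 (median 1.27) and 11 rose and 1 fell in beta-TC3 (median 0.58). The shares of all genes higher were 6.61% and 7.66% at 6 h, in alpha-TC1 and beta-TC3, and 18.2% and 17.2% at 24 h. Fos was at 7.40, 7.05 and 8.01 with MS-275 in alpha-TC1, against 3.56, 5.16 and 6.03 with DMSO (2.70 ± 0.26, adjusted p = 4.33e-14). In beta-TC3 it was at 7.42, 7.06 and 7.77 with MS-275, against 6.23, 6.74 and 7.26 with DMSO, with some overlap (0.89 ± 0.14, adjusted p = 2.81e-07). At 6 h Fos was called in neither line. The stress factor Atf3 rose by 2.26 ± 0.29 and 0.55 ± 0.18, Egr1 by 1.68 ± 0.22 and 1.28 ± 0.16, and Klf4 by 1.72 ± 0.25 and 0.91 ± 0.16, in alpha-TC1 and beta-TC3 at 24 h. The call of Atf3 in beta-TC3 was lost with no batch term (0.37, adjusted p = 0.247) and without the first or the third array (0.49 each, adjusted p = 0.0858 and 0.0899). Ier3 ran the other way in alpha-TC1, rising by 1.63 ± 0.14 at 6 h and standing at -0.39 ± 0.17 at 24 h (not called), a difference of -2.03 ± 0.22 (adjusted p = 1.82e-13). Txnip, which inhibits thioredoxin and glucose uptake, rose at 6 h by 0.96 ± 0.12 in alpha-TC1 and 0.91 ± 0.14 in beta-TC3, and at 24 h by 2.47 ± 0.25 and 1.50 ± 0.13.

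Enzymes that conjugate toxic molecules rose widely at 24 h. Of 17 glutathione and glucuronic acid transferase genes 12 rose in alpha-TC1 and 11 in beta-TC3, none fell, and the median change was 0.61 in both lines. At 6 h 4 had risen in alpha-TC1 and 1 in beta-TC3. The shares of all genes higher were 6.61% and 7.66% at 6 h, in alpha-TC1 and beta-TC3, and 18.2% and 17.2% at 24 h. Gstt1 was at 8.79, 8.75 and 8.78 with MS-275 in alpha-TC1, against 5.86, 6.10 and 6.52 with DMSO (2.52 ± 0.16, adjusted p = 5.06e-22). In beta-TC3 it was at 8.19, 8.41 and 8.04 with MS-275, against 5.22, 5.96 and 6.61 with DMSO (2.21 ± 0.17, adjusted p = 7.35e-18). All MS-275 arrays were above all DMSO arrays. Gstk1, a mitochondrial and peroxisomal form, rose by 1.76 ± 0.21 in alpha-TC1 and by 3.14 ± 0.20 in beta-TC3, and the microsomal forms Mgst1 (3.55 ± 0.20) and Mgst3 (2.63 ± 0.29) rose in alpha-TC1 and by 1.18 ± 0.15 and 1.46 ± 0.26 in beta-TC3. The other Mgst1 probe set stood at 0.11 in alpha-TC1 and -0.07 in beta-TC3. Related genes of paralogous families can share probes, which was not tested. Of 13 targets and partners of the oxidative stress factor NRF2 8 rose in alpha-TC1 and 7 in beta-TC3, with heme oxygenase Hmox1 up by 1.63 ± 0.26 and 0.64 ± 0.16. Of 11 lysosome genes 9 rose in alpha-TC1 (median 0.60) and 7 in beta-TC3 (median 0.29), led by the protease gene Ctsl (2.03 ± 0.13 and 0.90 ± 0.091).

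The repressor REST recruits deacetylases to several neuronal and secretory vesicle genes. The list used here is of neuronal genes and counts Rest itself, and binding of REST was not measured. Of 19 genes measured, 4 rose and 1 fell at 6 h in alpha-TC1 and 5 rose and 0 fell in beta-TC3. At 24 h 11 rose and 2 fell in alpha-TC1 and 12 rose and 1 fell in beta-TC3. The shares of all genes higher were 6.61% and 7.66% at 6 h, in alpha-TC1 and beta-TC3, and 18.2% and 17.2% at 24 h. Stmn2, a regulator of axonal microtubules, was at 4.53, 5.46 and 4.22 with MS-275 in alpha-TC1, against 2.62, 2.91 and 3.31 with DMSO (1.77 ± 0.20, adjusted p = 8.63e-12), and was not called in beta-TC3 (0.10 ± 0.092), where its other probe set stood at 0.72. Snap25, a SNARE protein of exocytosis, rose by 0.51 ± 0.12 in alpha-TC1 and 1.18 ± 0.12 in beta-TC3, and the neurofilament gene Nefl by 0.46 ± 0.14 and 1.08 ± 0.11. Rest itself rose by 0.82 ± 0.11 in beta-TC3 from a dim level, whereas its other 2 probe sets stood at -0.12 and -0.03.

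Of 7 genes of catecholamine and serotonin synthesis 1 rose and 2 fell at 24 h in each line. Beside this list and the channel list below, 37.7% of all genes were called in alpha-TC1 and 32.9% in beta-TC3. Th, the tyrosine hydroxylase that starts the pathway, was at 5.40, 6.97 and 5.90 with MS-275 in beta-TC3 at 24 h, against 7.63, 8.42 and 8.72 with DMSO, a 5.31-fold fall (-2.41 ± 0.21, adjusted p = 1.99e-15). In alpha-TC1 it was at 5.62, 6.13 and 5.76 with MS-275, against 6.57, 6.92 and 7.49 with DMSO (-1.32 ± 0.22, adjusted p = 1.16e-06). At 6 h Th had risen in alpha-TC1 (0.60 ± 0.13, adjusted p = 0.000615). The change at 24 h minus that at 6 h was -1.91 ± 0.26 in alpha-TC1 (adjusted p = 1.29e-09) and -2.68 ± 0.26 in beta-TC3 (adjusted p = 9.72e-16). Ddc, the next enzyme, fell by 0.74 in alpha-TC1 (SE 0.21) and by 1.02 in beta-TC3 (SE 0.16), whereas Gch1, which makes the cofactor of Th, rose by 2.59 ± 0.21 and 0.78 ± 0.10. Of 14 channel genes 3 rose and 3 fell at 24 h in alpha-TC1 and 2 rose and 4 fell in beta-TC3. The calcium channel gene Cacna1c fell by 1.49 in alpha-TC1 (SE 0.18) and by 1.33 in beta-TC3 (SE 0.15), and Kcnj11, a subunit of the ATP-sensitive potassium channel, by 1.12 (SE 0.14) and 0.73 (SE 0.14).

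Of the remaining lists, heat shock genes were mixed at 24 h, with 3 of 10 higher and 2 lower in alpha-TC1 and 3 higher and 3 lower in beta-TC3. Beside all counts of this paragraph, 37.7% of all genes were called in alpha-TC1 and 32.9% in beta-TC3. The small chaperone gene Hspb1 was at 9.01, 7.75 and 9.03 with MS-275 in beta-TC3, against 5.33, 5.61 and 6.20 with DMSO (3.00 ± 0.18, adjusted p = 3.46e-23), and in alpha-TC1 it was dim and not called (0.17 ± 0.15). The other 3 Hspb1 probe sets ran from 0.06 to 2.82 in beta-TC3. Of 13 p53 targets 4 rose and 3 fell in alpha-TC1 and 4 rose and 0 fell in beta-TC3, where Perp rose by 1.75 ± 0.19. Of 11 histone genes 3 rose and 1 fell in alpha-TC1 and 5 rose and 2 fell in beta-TC3. The linker histone gene H1f2 rose by 1.93 ± 0.20 and 1.97 ± 0.18, and the variant gene H2ax fell by 1.15 (SE 0.18) and 1.30 (SE 0.12). Of 16 genes of the endoplasmic reticulum and amino acid stress responses 7 rose and 5 fell in alpha-TC1 and 5 rose and 2 fell in beta-TC3, and of 14 cholesterol synthesis genes 3 rose and 4 fell in alpha-TC1 and 5 rose and 2 fell in beta-TC3. Among 7 housekeeping genes 0 rose and 1 fell in each line, Rpl13a in alpha-TC1 and Gapdh in beta-TC3.

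Genes called at both times in a line usually kept their direction. In alpha-TC1 432 of the 780 genes higher at 6 h were also higher at 24 h (55.4% of the first list and 20.1% of the second) and 70 were lower. In beta-TC3 484 of 904 stayed higher (53.5% and 23.8%) and 55 were lower. The test of the difference itself, the change at 24 h minus that at 6 h, called 2898 genes in alpha-TC1 (1491 with the higher change at 24 h, 12.6%, and 1407 with the lower, 11.9%, together 24.5% of all genes) and 2087 in beta-TC3 (1231 higher, 10.4%, and 856 lower, 7.25%, together 17.7%). When each array was centred on its median, the split became 1290 against 1635 in alpha-TC1 and 986 against 1255 in beta-TC3. With dim genes left out that of alpha-TC1 was 1050 against 1337. The differences were 4.23 ± 0.38 for Gsta4 (adjusted p = 3.42e-18) and 3.49 ± 0.36 for Selenop (adjusted p = 1.11e-14) in alpha-TC1. In beta-TC3 they were 3.72 ± 0.30 for Calb1 (adjusted p = 3.31e-20) and 3.48 ± 0.36 for Crabp2 (adjusted p = 1.08e-14). Rsad2 grew less between the times, by 1.49 ± 0.43 in alpha-TC1 (adjusted p = 0.00485) and 0.80 ± 0.26 in beta-TC3 (adjusted p = 0.0196). The call in beta-TC3 was lost with no batch term (0.69, adjusted p = 0.12) and without the first or the third array at 24 h or the third at 6 h (0.67 to 0.74, adjusted p = 0.112, 0.0766 and 0.0706). Of the 19 mitosis genes 5 fell further and 1 recovered in alpha-TC1, and 18 fell further in beta-TC3.

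The responses of the lines were then compared directly, as the change in alpha-TC1 minus that in beta-TC3. No gene was called at 1 h by limma. There 350 had an unadjusted p under 0.05, below the share of 0.05 expected when no gene differs. At 6 h 400 were called (226 with the higher change in alpha-TC1, 1.91%, and 174 with the lower, 1.47%, together 3.39% of all genes). At 24 h 2125 were called (1027 higher, 8.70%, and 1098 lower, 9.30%, together 18.0%). Genes higher at 24 h in both lines numbered 1246, which is 58.1% of those of alpha-TC1 and 61.3% of those of beta-TC3. Those lower in both numbered 1241 (53.9% and 66.8%). Of the genes higher in alpha-TC1 51 were lower in beta-TC3, and of those lower in alpha-TC1 70 were higher in beta-TC3. At 6 h Ppp1r3c differed by 2.75 ± 0.22 (adjusted p = 4.08e-21), Selenop by 1.95 ± 0.27 (adjusted p = 2.04e-08) and Tdo2 by -2.09 ± 0.16 (adjusted p = 1.33e-21), whereas the difference for Rsad2 was 0.67 ± 0.27 (adjusted p = 0.184, not called). With the mean of all its probe sets it was 1.12 and called (adjusted p = 1.41e-06). Without the second MS-275 array of alpha-TC1 262 genes were called at 6 h, and without the first of beta-TC3 248.

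At 24 h the largest positive differences included Gsta4 (3.93 ± 0.33, adjusted p = 6.73e-20), Tacc2, Phf20l1 and Lgals1. Tacc2, which encodes a centrosomal coiled-coil protein, was at 8.93, 8.82 and 9.11 with MS-275 in alpha-TC1, against 5.58, 6.29 and 6.98 with DMSO, and at 6.18, 6.62 and 5.76 with MS-275 in beta-TC3, against 6.15, 6.92 and 7.74 with DMSO. It rose in alpha-TC1 (2.61 ± 0.24) and fell in beta-TC3 (-1.12 ± 0.17), a difference of 3.72 ± 0.29 (adjusted p = 2.59e-21). Lgals1, the secreted lectin galectin-1, differed by 3.25 ± 0.32 (adjusted p = 2.06e-15). The largest negative differences were those of Tesc (-3.98 ± 0.29, adjusted p = 4.08e-23), Kcnk2 (-3.33 ± 0.30, adjusted p = 3.97e-18), Lpl (-3.23 ± 0.28, adjusted p = 1.35e-18), Crabp2 (-3.03 ± 0.32, adjusted p = 1.94e-14) and Hspb1 (-2.84 ± 0.24, adjusted p = 2e-19). For Tesc, Lpl and Kcnk2 the line that did not respond was already bright (Tesc and Lpl in alpha-TC1) or dim (Kcnk2 in beta-TC3) with DMSO alone. Of the lists, interferon response genes differed in 7 of 14 and antigen presentation genes in 5 of 11, each with the higher change in alpha-TC1, beside 8.70% of all genes. H2-D1 differed by 1.95 ± 0.24 (adjusted p = 4.62e-11) and Fos by 1.81 ± 0.30 (adjusted p = 5.32e-07).

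**Figure D5:**
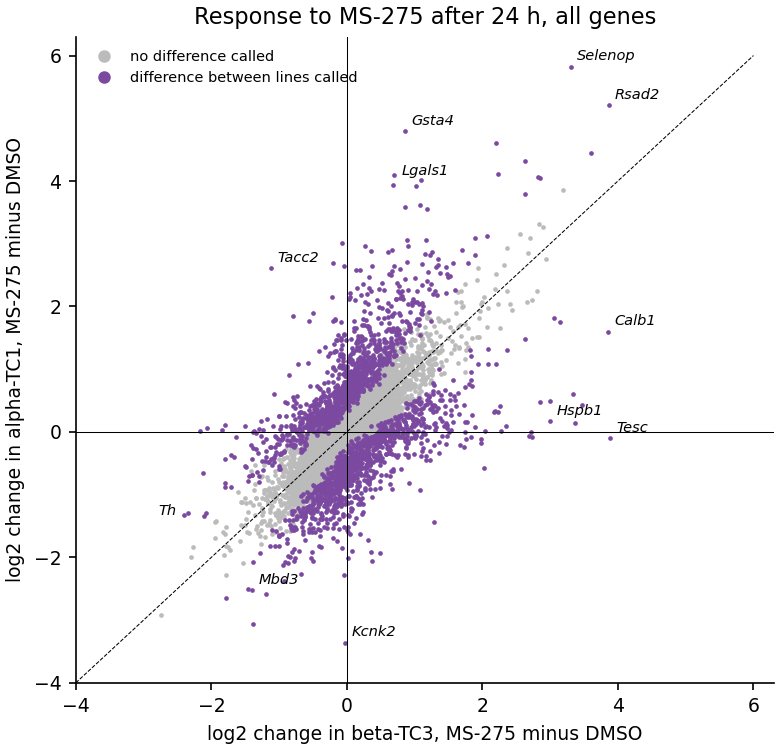
Change in log2 level with MS-275 minus DMSO after 24 h in alpha-TC1 (y axis) and in beta-TC3 (x axis) for all 11807 genes, with the 2125 genes whose change differed between the lines in purple and a dashed line where both changes are equal. Gsta4 lies high on the left, Tesc far right near 0 of alpha-TC1, and Kcnk2 low near 0 of beta-TC3.

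MS-275 was last set beside CI-994 at 10 µM and MGCD-0103 at 1.1 µM. All 3 share the ortho-amino anilide that binds the enzyme. They differ in the rest of the molecule, which is an acetamide in CI-994, a pyridylmethyl carbamate in MS-275 and a pyridyl-pyrimidine amine in MGCD-0103. Since the doses differ, the values compare the compounds only as dosed here. Against the same DMSO arrays MS-275, CI-994 and MGCD-0103 called 1692, 2722 and 1278 genes at 6 h in alpha-TC1 (14.3%, 23.1% and 10.8%), and 2106, 2912 and 1861 in beta-TC3 (17.8%, 24.7% and 15.8%). At 24 h they called 4447, 3707 and 3802 in alpha-TC1 (37.7%, 31.4% and 32.2%), where CI-994 had 2 arrays, and 3890, 3987 and 3731 in beta-TC3 (32.9%, 33.8% and 31.6%). In the order MS-275, CI-994 and MGCD-0103, Rsad2 changed by 5.22, 5.13 and 5.17 in alpha-TC1 at 24 h, and Selenop by 5.82, 5.84 and 5.23. In beta-TC3 Tesc changed by 3.88, 4.47 and 3.90, and Cdc20 by -2.27, -2.28 and -2.24.

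MS-275 minus the mean of CI-994 and MGCD-0103, a contrast without DMSO, was tested in 4 comparisons, with p-values adjusted over genes in each. At 6 h limma called 0 genes in alpha-TC1 and 0 in beta-TC3 (381 and 203 at an unadjusted p under 0.05). At 24 h the unadjusted counts were 562 and 401. All 4 unadjusted counts lie below the share of 0.05 expected when no gene differs. Called at 24 h by limma were 1 gene in alpha-TC1 (0.00847%) and 0 in beta-TC3. The gene was Calb1, 1.27 higher with MS-275 (SE 0.15, 95% interval 0.97 to 1.57, adjusted p = 6.08e-08), on the probe set of Calb1 that responded. With only the arrays of these 3 compounds in the fit it was 1.21 higher and not called (adjusted p = 0.969). Against DMSO it changed by 1.60, 0.63 and 0.03 in alpha-TC1, in the same order, and by 3.86, 4.26 and 2.84 in beta-TC3. A gene that was not called is not shown to respond alike. The 95% interval of the difference lay within 1 on the log2 scale for 11800 genes in alpha-TC1 at 6 h and 11744 at 24 h. In beta-TC3 it did so for 11806 and 11798 genes. These counts take in all 11807 genes, many of them not called with MS-275. They therefore do not show that responding genes respond alike. For Rsad2 at 24 h the interval ran from -0.77 to 0.91 in alpha-TC1, and for Tesc in beta-TC3 from -0.88 to 0.27.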

How the data were processed

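Total RNA was labelled as biotinylated cRNA for Affymetrix HT mouse arrays. Deposited values are linear intensity values per probe set, which the authors normalized with RMA per the submitters' processing notes (version not given in the sources used here). They ran from 3.96 to 13635 and were taken to log2 here. The design had assumed log2 values, and the test was unchanged. Of 22716 probe sets 18003 had 1 gene symbol, 287 several and 4426 none, and the probe set with the highest mean stood for each of 11807 genes (4150 had more than 1). Arrays have no read depth, and the number of arrays limits the precision. Each line and time was fitted on its own with limma 3.58.1 in R 4.3.3, over all its arrays, with treatment groups and batch (4 to 10) as fixed terms. P-values were adjusted by the Benjamini-Hochberg method over all genes. Differences between lines, times and compounds were contrasts in joint fits with batch within line or time. Simulated data had 100 genes shifted by 0.5 and 100 by 1 on the log2 scale, with noise drawn independently per gene. On them the comparison in alpha-TC1 at 24 h recovered 58% and 97%, with 8 false calls among the unshifted of 11807 genes. The line difference at 24 h recovered 42% and 92%, and the time difference in beta-TC3 32% and 96%. The real comparison in alpha-TC1 at 24 h called 4447 genes, far more than were shifted. The simulated shares and false calls therefore need not carry over to the reported comparisons.

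Members and gene lists were chosen with earlier results of these data known. Genes named were the 10 largest rises and falls per line and time whose groups were apart, the 8 largest differences each way, up to 4 members of each list, and a set of islet, cell cycle and deacetylase genes. Other list members were named after their values were seen. Alternatives changed the batch term, plate, normalization, scaling, filter, probe sets, arrays in the fit, batches, adjustment and replicates.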

Additional observations from a re-analysis of the deposited data

Results flagged for a closer look

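Of 16 genes tested for a stray array among the 10 DMSO arrays of beta-TC3 at 6 h, 1 had one. For Tdo2 the gap of the farthest array was 0.641 of the range, above the 95% critical value of Dixon, which chance exceeds in about 1 of 20 such groups. All 3 MS-275 arrays were above that array.

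The change with MS-275 differed between alpha-TC1 and beta-TC3 for 400 genes at 6 h and 2125 at 24 h. At 6 h the differences, alpha-TC1 minus beta-TC3, were 2.75 for Ppp1r3c, 1.95 for Selenop and -2.09 for Tdo2. At 24 h those above 0 were 3.93 for Gsta4, 3.72 for Tacc2, 3.25 for Lgals1, 1.95 for H2-D1, 1.81 for Fos, 1.05 for Ube2c and 0.80 for Plk1. Those below 0 were -3.98 for Tesc, -3.33 for Kcnk2, -3.23 for Lpl, -3.03 for Crabp2 and -2.84 for Hspb1.

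Between the times, as the change at 24 h minus that at 6 h, 2898 genes differed in alpha-TC1 and 2087 in beta-TC3. In alpha-TC1 the values were 4.23 for Gsta4, 3.49 for Selenop, 3.12 for Cdkn1c, 1.49 for Rsad2, 1.13 for Sin3a, -0.76 for Cdkn2b, -1.91 for Th, -2.03 for Ier3 and -2.83 for G6pc2. In beta-TC3 they were 3.72 for Calb1, 3.48 for Crabp2, 1.89 for Cdkn1c, 0.88 for Sin3a, 0.80 for Rsad2 and -2.68 for Th. All were tested by contrasts in limma.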

How the results depend on the processing

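Of 187 alternative counts of called genes 172 stayed within 1.5 times the reported count. Many of the 172 are counts of 0 that stayed 0, as at 1 h, for which such a ratio has no meaning. At 1 h a single adjustment over the 6 comparisons with DMSO called 53 genes in alpha-TC1 and 54 in beta-TC3. That adjustment applies a common p cutoff, which the many small p-values at 6 and 24 h loosen for 1 h. The unadjusted counts at 1 h, 358 and 408, lie below the share of 0.05 expected when no gene changes. These calls therefore do not show a response at 1 h. Without batch 4, an alternative chosen after seeing the data, 995 genes were called in alpha-TC1 and 1361 in beta-TC3 at 6 h. The difference between lines at 6 h gave 244 genes with no batch term and 607 with plate as a random block. Against the other anilides in alpha-TC1 at 24 h the count was 0 with dim genes left out and 0 with only the arrays compared. Leaving out each MS-275 array in turn gave 1078 to 1243 genes in alpha-TC1 and 1536 to 1578 in beta-TC3 at 6 h, 3603 to 4059 and 3069 to 3596 at 24 h, 248 to 338 for the line difference at 6 h and 1656 to 2014 at 24 h. It gave 2339 to 2712 genes for the time difference in alpha-TC1 and 1524 to 2103 in beta-TC3. Against the other anilides it gave 0 to 1 and 1 to 5 in alpha-TC1 at 6 and 24 h, and 0 to 0 and 0 to 1 in beta-TC3. No called change of a named gene reversed in sign. The balance of higher and lower genes did turn in some alternatives. Among these were the balance of beta-TC3 at 24 h and the splits of the time difference given above. The cause of each move was not tested. No paired analysis was possible because titles of DMSO arrays hold no replicate number, and batch stood as a block in each fit with DMSO. The anilide contrast with the replicate block called 0 and 1 genes in alpha-TC1 at 6 and 24 h, and 0 and 0 in beta-TC3. Deviations of same-numbered arrays of different anilides correlated at -0.22 to 0.41, and those of differently numbered arrays at -0.39 to 0.39. In alpha-TC1 at 6 and 24 h and beta-TC3 at 6 and 24 h, the same-number medians were 0.03, 0.08, 0.07 and 0.10. The medians for different numbers were lower, at -0.02, -0.07, -0.01 and -0.05. Whether same-numbered arrays deviate together was not tested.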
